A study of Mus musculus with 3 samples.

Results

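The 8 genes Lgr5, Ascl2, Olfm4, Smoc2, Axin2, Rnf43, Znrf3 and Sox9 were taken by symbol from the 31053 genes counted in single cells of the mouse small intestine, and all 8 were found. They mark the crypt, the gland at the base of the villus where intestinal stem cells (ISCs) divide. Wild-type male C57BL/6N mice aged 12 weeks gave the cells, and those of 3 mice were pooled. There were 3 libraries, 1 each from duodenum, jejunum and ileum, of propidium iodide-negative live cells, with no gate on an epithelial marker, so that intraepithelial immune cells were included. Single mice could therefore not be told apart, and with 1 library per segment no difference between segments could be tested.

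Wnt ligands bind Frizzled receptors and LRP co-receptors, which stabilises β-catenin and lets it act with TCF/LEF factors on target genes. Lgr5, the receptor that defines crypt-base stem cells, binds R-spondins, which keep the E3 ubiquitin ligases Rnf43 and Znrf3 from removing Frizzled from the cell surface. Rnf43, Znrf3 and Axin2, a scaffold of the β-catenin destruction complex, are themselves Wnt targets and act as negative feedback. Ascl2 is the transcription factor that maintains stem cell identity, Olfm4 (olfactomedin 4) is a secreted glycoprotein of stem cells, Smoc2 is a secreted matrix protein, and Sox9 is a transcription factor of the crypt base, Paneth cells and tuft cells.

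Lgr5 (ENSMUSG00000020140) lies on chromosome 10 at 115450311 to 115587780 on the minus strand and Ascl2 (ENSMUSG00000009248) on chromosome 7 at 142966829 to 142969264 on the minus strand, by GENCODE M21 on GRCm38. Olfm4 lies on chromosome 14 at 79984081 to 80023139 (plus), where an exon overlaps Gm6999 on the same strand, so its UMIs could include reads of that gene. Smoc2 lies on chromosome 17 at 14279506 to 14404790 (plus). The other 4 share chromosome 11, with Znrf3 at 5276324 to 5444847 (minus), Rnf43 at 87662722 to 87735539 (plus), Axin2 at 108920349 to 108950783 (plus) and Sox9 at 112782224 to 112787760 (plus).

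The 250 bases before the annotated start are shown for 3 genes that were all higher in crypt cells than in enterocytes but that differed in how far, so that their start regions can be compared (RefSeq, GRCm38.p6, 5′ to 3′ along the gene). Capitals mark matches on either strand to CANNTG, the E-box that basic helix-loop-helix factors such as Ascl2 bind, and to TATAA, the core of the TATA box.
Ascl2 (chr7:142969265-142969514, minus strand): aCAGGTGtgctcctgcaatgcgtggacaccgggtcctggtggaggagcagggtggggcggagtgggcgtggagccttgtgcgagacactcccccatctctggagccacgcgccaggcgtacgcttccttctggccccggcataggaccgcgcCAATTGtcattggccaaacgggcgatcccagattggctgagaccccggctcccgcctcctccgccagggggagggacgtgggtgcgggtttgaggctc
Olfm4 (chr14:80000052-80000301, plus strand): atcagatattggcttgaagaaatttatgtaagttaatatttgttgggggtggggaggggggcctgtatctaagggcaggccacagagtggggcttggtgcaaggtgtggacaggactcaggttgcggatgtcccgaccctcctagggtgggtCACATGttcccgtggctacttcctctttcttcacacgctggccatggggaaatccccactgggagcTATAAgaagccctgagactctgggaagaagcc
Axin2 (chr11:108920099-108920348, plus strand): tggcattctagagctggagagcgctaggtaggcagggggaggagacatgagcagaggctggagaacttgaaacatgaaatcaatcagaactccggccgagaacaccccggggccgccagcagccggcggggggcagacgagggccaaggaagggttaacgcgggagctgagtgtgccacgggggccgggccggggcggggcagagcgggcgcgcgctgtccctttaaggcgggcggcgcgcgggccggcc

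Olfm4 held TATAA at position -32 from its RefSeq start, with 22.8% of all 32851 RefSeq promoter windows of this length holding that motif on either strand. This window lies inside the GENCODE span of Olfm4 given above, which begins upstream of it at 79984081. The single E-box match of Olfm4 was CACATG at -98. Ascl2 held 2 matches to CANNTG, a pattern found in 66.2% of the windows, and Axin2 held none of either motif. No match to CTTTGA, the core of TCF/LEF sites, was found in these 3 windows or in the 2 annotated starts of Rnf43, while 13.8% of all windows held one. The G and C bases made up 67.6% of the Ascl2 window, 69.2% of that of Axin2 and 54.0% of that of Olfm4, with a median of 52.4% over all windows. Lgr5, Smoc2, Znrf3 and Sox9 were not in the table used.

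The libraries held 9501, 8139 and 9595 barcodes in duodenum, jejunum and ileum, of which 16686 of 27235 passed the cell filters of the study's methods. Kept cells had a median of 12424, 11737 and 5536 unique molecular identifiers (UMIs, each a counted RNA molecule), and their median mitochondrial share was 27.1%, 27.2% and 11.1%. Between 20 and 28 barcodes were shared by any 2 libraries (at most 0.344% of the smaller one), and none of them was in the crypt class. Cells were clustered without the 8 genes and named by markers of other genes. The crypt class, called ISC/proliferating cells, held 206 cells (71, 47 and 88 in duodenum, jejunum and ileum), and 197 of these had at least 1 UMI of the epithelial gene Epcam. T cell markers reached 12.5 UMIs per 10000 in the ileal crypt class and 0.00600 and 1.29 in those of duodenum and jejunum, with 2018 of the 2052 T cell marker UMIs in 6 of the 206 cells. Those 6 cells held 1 UMI of the 8 genes, and without them all 8 tests below stayed past the threshold.

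The crypt class held most of the UMIs of 4 of the 8 genes. It contributed 2.26% of all UMIs in kept cells but 89.7% of the 11178 UMIs of Olfm4, 76.8% of the 228 of Ascl2, 65.6% of the 645 of Smoc2 and 53.8% of the 379 of Lgr5. Sox9 was divided differently, with 15.3% of 2320 UMIs in the crypt class and 56.9% in tuft cells. Of the 2822 UMIs of Axin2, 11.8% came from the crypt class and 64.7% from enterocytes, which contributed 63.5% of all UMIs.

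**Figure D1:**
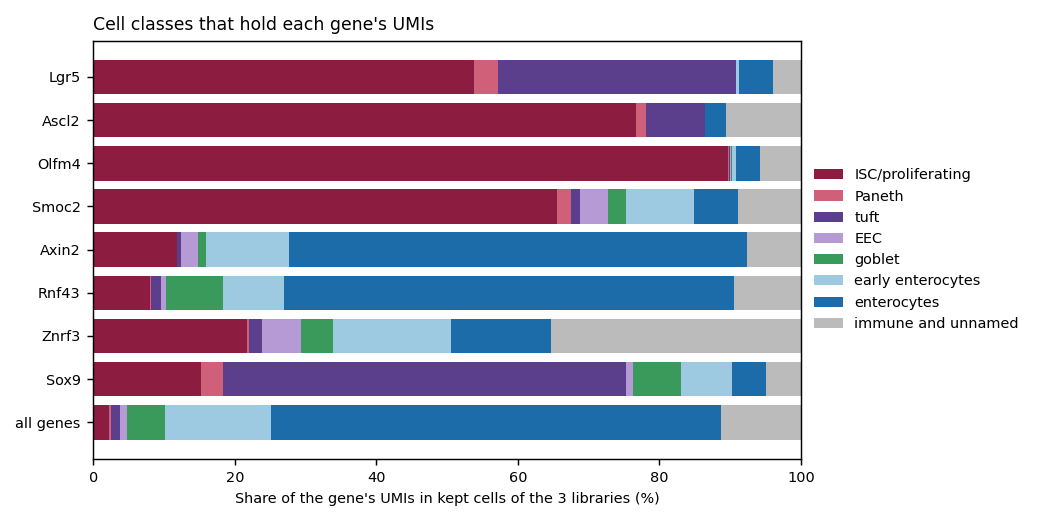
Horizontal bars give the share (%) of each gene's UMIs in kept cells of the 3 libraries that each cell class held, and the lowest bar gives the same for all genes together. Olfm4 sits almost wholly in ISC/proliferating cells (89.7%), Lgr5 is divided between these (53.8%) and tuft cells (33.5%), and Axin2 follows the enterocytes' share of all UMIs (64.7% against 63.5%).

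In ISC/proliferating cells, Olfm4 was at 20.6, 27.7 and 26.9 UMIs per 10000 UMIs in duodenum, jejunum and ileum. Enterocytes, the absorptive cells of the villus, held 0.0260, 0.0198 and 0.0580, and the 2 classes did not overlap. Levels are UMI counts of a 3′ assay, not scaled by gene length, so they are compared between classes for a gene and not between genes. In T cells, a class that should lack Olfm4, 4.39% of cells had an Olfm4 UMI (median depth 4263 UMIs), against 3.39% of enterocytes (median depth 9846). The enterocyte share was thus no higher than that of T cells, of which 1086 of 1229 came from the ileum.

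Lgr5 was present in ISC/proliferating cells at 0.318, 0.298 and 0.805 UMIs per 10000 (53, 26 and 125 UMIs) in duodenum, jejunum and ileum. The level in enterocytes was 0.000499, 0.000922 and 0.00378. The ileal crypt value lay above the other two, and its exact 95% Poisson interval, 0.670 to 0.959, did not overlap theirs (0.238 to 0.416 and 0.194 to 0.436). This interval covers counting error only, as do all intervals given here, and the segments could not be tested. With the upper limits on UMIs and genes per cell lifted, the crypt levels of Lgr5 were 0.204, 0.196 and 0.506, lower in each library but in the same order. At least 1 Lgr5 UMI was found in 20 of 71, 11 of 47 and 37 of 88 crypt cells. The most in 1 cell was 19 in the ileum and 7 in duodenum and jejunum, a spread between cells that the Poisson intervals do not cover. After thinning each cell to 800 UMIs, 6 of 206 crypt cells kept one (2.91%), compared with 3 of 10479 enterocytes (0.0286%) and 0 of 1229 T cells.

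Ascl2 was found at 0.420, 0.263 and 0.528 UMIs per 10000 in the crypt class and at 0, 0.000692 and 0.00126 in enterocytes. Smoc2 was even across the segments, at 1.07, 0.985 and 1.02, with intervals that overlapped each other. Znrf3 was also even, at 0.198, 0.183 and 0.161. Sox9 was at 0.732, 0.893 and 0.992. Axin2 was at 0.588, 0.893 and 1.00 and Rnf43 at 0.354, 0.469 and 0.425. Enterocytes held up to 0.295 of Axin2 and up to 0.203 of Rnf43, below the crypt class in each library.

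**Figure D2:**
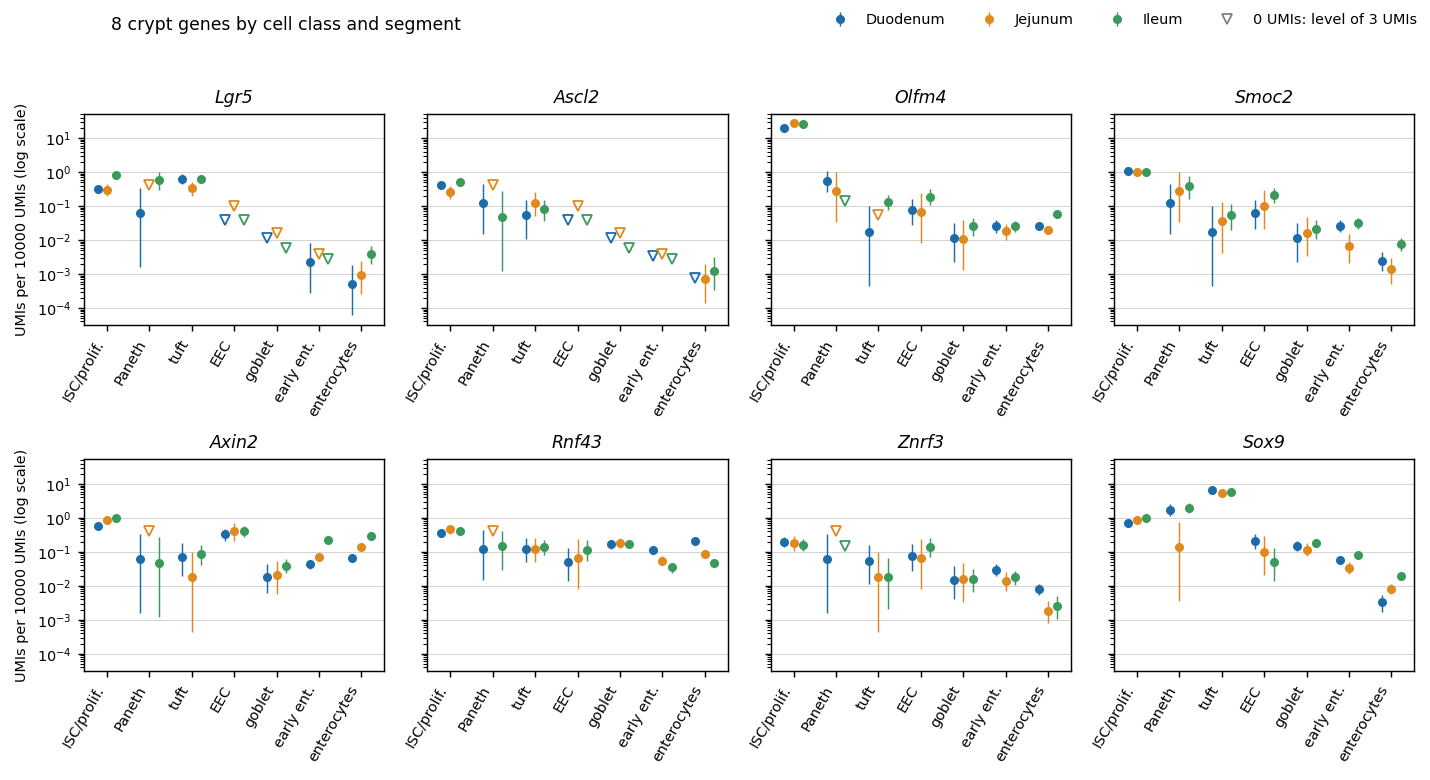
Each panel plots 1 gene, with UMIs per 10000 UMIs on a log axis for 7 epithelial classes. Points are the 3 libraries with exact 95% Poisson intervals, and open triangles mark a class and library with 0 UMIs at the level that 3 UMIs would give. Olfm4 stands highest in ISC/proliferating cells (20.6 to 27.7), Sox9 stands highest in tuft cells (5.29 to 6.47), and Lgr5 reaches 0.805 in the former and 0.639 in the latter.

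All 8 genes were higher in ISC/proliferating cells than in enterocytes (edgeR quasi-likelihood test on UMIs summed per library and class, library as a block, Benjamini-Hochberg adjustment over 11217 genes, n = 3 libraries per class). As background, 34.3% of all genes tested were called higher in this comparison. The crypt class was built without the 8 genes but from the same cells, and named by crypt markers such as Clca3b and Slc12a2. The count is therefore not independent of how the class was drawn. The log2 fold change was 8.88 ± 0.41 (SE) for Olfm4 with adjusted p = 7.75e-11, 8.33 ± 0.66 for Ascl2, 7.47 ± 0.42 for Smoc2 and 7.28 ± 0.51 for Lgr5 (adjusted p = 4e-08). Sox9 and Znrf3 followed with 5.67 ± 0.45 and 4.77 ± 0.43. The feedback genes Axin2 and Rnf43 rose least, by 1.70 ± 0.32 (adjusted p = 0.000149) and 1.28 ± 0.38 (adjusted p = 0.00667), and the Rnf43 call was lost without the jejunum (adjusted p = 0.111). Each gene was higher in 3 of 3 libraries.

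Early enterocytes, cells of the enterocyte lineage marked by genes such as Reg3b and Dmbt1, gave the same count (without integration this class was found in the ileum with 700 cells, in the jejunum with 1 and not in the duodenum), with 8 of 8 genes higher in ISC/proliferating cells (edgeR, with 24.7% of all genes called higher and 27.3% lower). No Ascl2 UMI was found among the 27354724 UMIs of 1166 early enterocytes, so that the crypt level was at least 390-fold higher, computed against 3 UMIs in the class (at least 205-fold without the ileum). Lgr5 had 2 UMIs there. Olfm4 was at 0.0254, 0.0181 and 0.0256 UMIs per 10000, near its level in enterocytes. Smoc2 (0.0227), Sox9 (0.0607) and Znrf3 (0.0208) had higher levels over all libraries in early enterocytes than in enterocytes (0.00347, 0.00972 and 0.00417), a difference that was not tested.

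The tuft cell, a chemosensory epithelial cell marked by Dclk1 and Trpm5, carried Lgr5 and Sox9. Lgr5 was at 0.639, 0.336 and 0.638 UMIs per 10000 in the 45, 66 and 187 tuft cells of duodenum, jejunum and ileum, from 36, 19 and 72 UMIs. In 81 of 298 tuft cells (27.2%) at least 1 Lgr5 UMI was found, with no more than 6 in a cell. Compared with enterocytes the log2 fold change of Lgr5 was 7.73 ± 0.52 (SE, edgeR, adjusted p = 7.66e-08). Compared with ISC/proliferating cells it was 0.45 ± 0.40 (edgeR, adjusted p = 0.381), higher in 2 of 3 libraries, so that no difference was called between the classes at this spread. With the upper limits on UMIs and genes per cell lifted, it was called higher in tuft cells (1.04, adjusted p = 0.0304).

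Sox9 had its highest level in tuft cells, at 6.47, 5.29 and 5.83 UMIs per 10000, with a UMI in 275 of 298 cells. The log2 fold change was 8.62 ± 0.49 against enterocytes (edgeR, adjusted p = 9.32e-10) and 2.95 ± 0.38 against ISC/proliferating cells (edgeR, adjusted p = 9.1e-06), in 3 of 3 libraries each. Sox9 was at 5.98 in tuft cells with an Lgr5 UMI and at 5.78 in those without one. The other crypt genes were low in tuft cells. Olfm4 had 16 UMIs (1, 0 and 15 in duodenum, jejunum and ileum), and its 5.03% of cells with a UMI was near the 4.39% of T cells.

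In tuft cells against enterocytes, 5 of the 8 genes were higher (Lgr5, Sox9, Ascl2, Smoc2 and Znrf3) and Axin2 was lower by edgeR, with 26.1% of all genes called higher and 27.9% lower. Ascl2 rested on 19 UMIs, Smoc2 on 9 and Znrf3 on 6, and the Znrf3 call was lost on leaving out any of the 3 libraries (adjusted p from 0.0554 to 0.0784). Axin2 fell by 1.98 ± 0.50 on the log2 scale (adjusted p = 0.00284), in 2 of 3 libraries, and this call was lost without the jejunum (adjusted p = 0.0564) and in cells with at most 20% mitochondrial UMIs (adjusted p = 0.0582). Against ISC/proliferating cells, 6 of 8 genes were lower in tuft cells and Sox9 was higher (edgeR, 24.2% of all genes called lower and 26.0% higher). Olfm4 fell by 8.60 ± 0.46, Smoc2 by 4.72 ± 0.50, Axin2 by 3.68 ± 0.49, Znrf3 by 2.56 ± 0.56, Ascl2 by 2.11 ± 0.58 and Rnf43 by 1.43 ± 0.48 on the log2 scale. The Ascl2 call was lost without the ileum (adjusted p = 0.0682) and that of Rnf43 without the jejunum (adjusted p = 0.153).

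**Figure D3:**
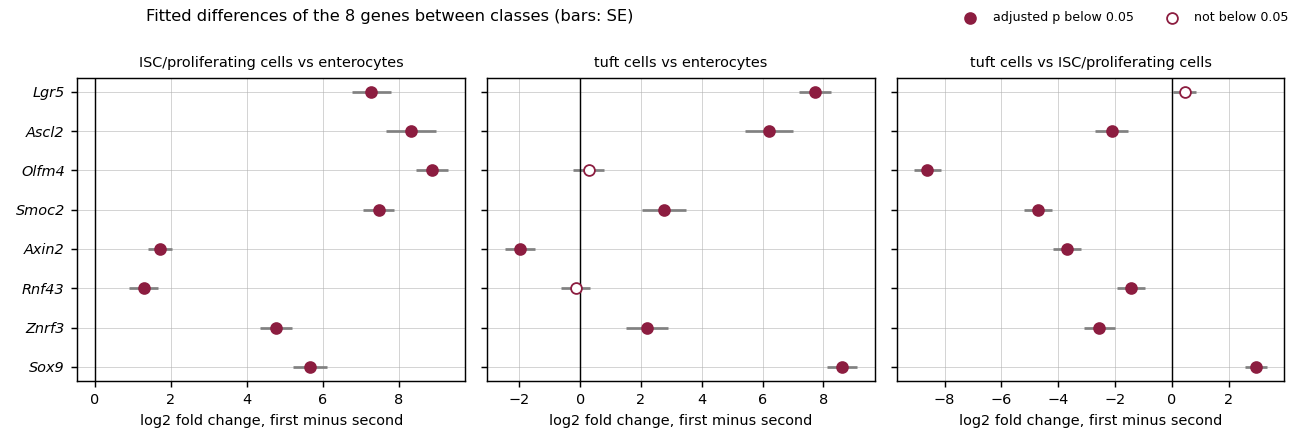
Fitted log2 fold changes (edgeR) of the 8 genes with their standard errors, from 3 libraries per class, are plotted for 3 comparisons, and open points did not pass an adjusted p of 0.05. All 8 points are above 0 for ISC/proliferating cells against enterocytes, and for tuft cells against ISC/proliferating cells Sox9 (2.95) is above 0 and Olfm4 (-8.60) farthest below.

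Goblet cells, which secrete mucus, held no UMI of Lgr5 or Ascl2 in 752 cells and 9629952 UMIs. The crypt level was at least 160-fold higher for Lgr5 and at least 137-fold higher for Ascl2, against 3 UMIs in the class. Without the ileum these limits were 47.1-fold and 55.5-fold. Sox9 was at 0.150, 0.117 and 0.189 UMIs per 10000 in goblet cells and rose against enterocytes by 3.91 ± 0.44 on the log2 scale (edgeR, adjusted p = 1.9e-06), with a UMI in 60 of 752 cells and up to 17 in 1 cell. In all, 3 of 8 genes were higher than in enterocytes (Sox9, Smoc2 and Znrf3) and Axin2 was lower (-2.58 ± 0.43, edgeR), with 21.0% of all genes called higher and 24.8% lower. Smoc2 and Znrf3 rested on 17 and 15 UMIs, and Znrf3 was not called without the jejunum or the ileum (adjusted p = 0.0826 and 0.0780), nor Smoc2 in cells with at most 20% mitochondrial UMIs (adjusted p = 0.0518). Rnf43 was at 0.168, 0.187 and 0.169 in goblet cells, and its difference from enterocytes was not called (0.80 ± 0.38, edgeR, adjusted p = 0.0963), while it was called without the duodenum (1.39, adjusted p = 0.00401). Against ISC/proliferating cells, 7 of 8 genes were lower in goblet cells (edgeR, with 27.9% of all genes called lower and 30.9% higher). The exception was Rnf43 (-0.48 ± 0.40, adjusted p = 0.314), which was called lower with library sizes alone (-1.25, adjusted p = 0.0144).

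Enteroendocrine cells (EECs), the hormone-secreting cells marked by Chga and Chgb, also held no UMI of Lgr5 or Ascl2 in 171 cells and 1866295 UMIs, which put the crypt level at least 31.0-fold higher for Lgr5 and at least 26.6-fold higher for Ascl2. Without the ileum these limits were 11.2-fold and 13.2-fold, and that of Ascl2 was 15.5-fold without the duodenum. Axin2 was at 0.329, 0.408 and 0.409 UMIs per 10000 in EECs, the highest level of an epithelial class after ISC/proliferating cells, with a UMI in 50 of 171 cells (29.2%). Smoc2 (0.0633, 0.102 and 0.217) and Znrf3 (0.0760, 0.0681 and 0.141) were also above their levels in enterocytes in each library. By edgeR, 3 of 8 genes were higher in EECs than in enterocytes (Smoc2, Znrf3 and Sox9) and none lower, with 30.2% of all genes called higher and 30.2% lower. Axin2 was not among them (0.55 ± 0.37, adjusted p = 0.211), although it was called without the ileum (adjusted p = 0.0150) and with library sizes alone (1.37, adjusted p = 0.00402), and it was -0.01 without the duodenum. The Sox9 call was lost without the duodenum (adjusted p = 0.110), and Rnf43 (-1.13 ± 0.56, adjusted p = 0.0946) was called lower without the ileum (-2.06, adjusted p = 0.00717). Against ISC/proliferating cells, 7 of 8 genes were lower in EECs (edgeR, with 22.3% of all genes called lower and 26.5% higher), and Znrf3 was not called (-0.92 ± 0.46, adjusted p = 0.114). Axin2 fell by 1.15 ± 0.38 (adjusted p = 0.0186), and this call was lost without the jejunum (adjusted p = 0.0908) or the ileum (adjusted p = 0.0607) and without the library block (adjusted p = 0.131).

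Paneth cells, the antimicrobial cells of the crypt base, were only 23 (7, 5 and 11) and entered no test. Sox9 was at 1.73, 0.137 and 1.98 UMIs per 10000 in them, with 21 UMIs in 1 cell in each of duodenum and ileum. Lgr5 had 13 UMIs, 12 of them in the ileum and 9 in a single cell. Olfm4 had 11 UMIs (0.249 per 10000), far below ISC/proliferating cells.

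The crypt cluster was split into 4 subclusters, of which 2 made up the ISC/proliferating cells, 1 was the Paneth cells and 1 was left without a name. Summed over the libraries, all 8 genes had a higher level in 1 of the 2 ISC/proliferating subclusters than in the other. The share of all genes with that order was not counted, so this count has no background beside it. The 132 cells led by Clca3b, Slc12a2 and Stmn1 held 33.3 Olfm4 UMIs per 10000, and the 74 cells led by Ube2c, Top2a and Mki67, genes of G2 and mitosis, held 4.95. Lgr5 was at 0.635 and 0.196 in these, Ascl2 at 0.536 and 0.188, Smoc2 at 1.25 and 0.564, Axin2 at 0.926 and 0.556, and Sox9 at 0.987 and 0.596. The intervals of Rnf43 (0.451 and 0.306) and Znrf3 (0.213 and 0.110) overlapped. In the jejunum, with 33 and 14 cells, the order was the opposite for Axin2 (0.763 and 1.503), Lgr5 (0.278 and 0.392) and Rnf43 (0.430 and 0.653), and the intervals overlapped for each of these. The duodenum and the ileum had the pooled order for all 8 genes. Mki67 was at 0.983 in the first subcluster and 4.83 in the second. The subclusters differed in depth (median 22756 and 14152.5 UMIs), and no test was made between cells of the same libraries.

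A further 52 cells of that cluster, led by Gp2, Ccl20 and Anxa5, were given no name. They held Olfm4 at 14.7, 13.0 and 1.25 UMIs per 10000 in the 8, 9 and 35 cells of duodenum, jejunum and ileum, or 6.95 over all, from 503 UMIs in 17 cells and 131 in a single cell. Lgr5 was at 0.124 and Ascl2 at 0.138, from 9 and 10 UMIs.

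**Figure D4:**
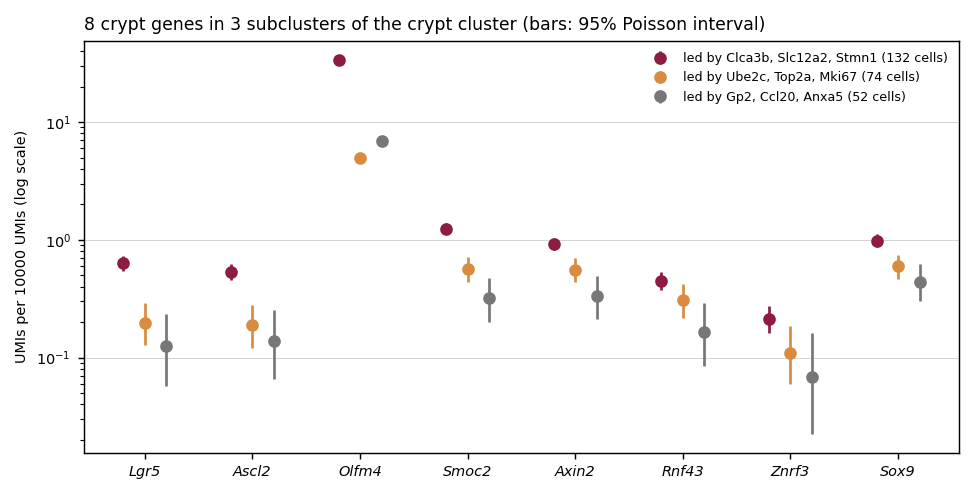
UMIs per 10000 UMIs on a log axis are shown for the 8 genes in 3 subclusters of the crypt cluster, summed over 3 libraries, with exact 95% Poisson intervals. Of these 3 the subcluster led by Clca3b is highest for each gene, with Olfm4 at 33.3 against 4.95 and 6.95, and the Paneth subcluster, where Sox9 was at 1.59, is not drawn.

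Olfm4 was unevenly spread over the crypt class. In 70 of 206 cells no UMI was found, and the median cell had 4.28 UMIs per 10000 and the highest 114. Cells above the upper quartile of Olfm4 UMI counts, not scaled for depth, held 86.7% of its UMIs. Cells with an Lgr5 UMI (68 of 206) held Olfm4 at 47.8 UMIs per 10000, compared with 10.0 in those without one. An Olfm4 UMI was found in 64 of the 68 and in 72 of the other 138. Ascl2 was at 0.805 against 0.194, Smoc2 at 1.67 against 0.637, Axin2 at 1.49 against 0.388, Sox9 at 1.40 against 0.534, Rnf43 at 0.575 against 0.301 and Znrf3 at 0.243 against 0.142. The order was the same in each library for the levels of all 7 genes, and the share of all genes with that order was not counted. Cells with an Lgr5 UMI were deeper, with a median of 25566.5 UMIs against 15872.5, and the part of depth in the shares of cells was not tested. All 8 genes were found together in 17 crypt cells (8.25%), and none of them in 23 (11.2%). In tuft cells the most common count was 1 gene (167 of 298 cells), and no tuft cell held more than 5.

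Axin2 and Rnf43 ran in opposite directions along the intestine in enterocytes. Axin2 was at 0.0676, 0.143 and 0.295 UMIs per 10000 in duodenum, jejunum and ileum, and Rnf43 was at 0.203, 0.0853 and 0.0469, and none of the 3 intervals of either gene overlapped. Early enterocytes had the same order, with 0.0431, 0.0698 and 0.228 for Axin2 and 0.110, 0.0556 and 0.0350 for Rnf43. There the intervals of duodenum and jejunum overlapped for Axin2, and those of jejunum and ileum for Rnf43. The values of goblet cells were lower for Axin2 (0.0187, 0.0214 and 0.0393) and level for Rnf43 (0.168 to 0.187). Among 6 enterocyte clusters with at least 50 cells in each library, the ileum exceeded the duodenum for Axin2 in 6 of 6 and fell below it for Rnf43 in 6 of 6. The jejunum lay between them in 6 of 6 clusters for Rnf43 and in 5 of 6 for Axin2, the exception being a cluster at 0.0295, 0.0729 and 0.0418 in duodenum, jejunum and ileum. The enterocytes of the ileum had a lower mitochondrial share than those of duodenum and jejunum (median 12.0%, 28.9% and 29.0%) and fewer UMIs per cell (6314, 12044 and 12040). Per 10000 non-mitochondrial UMIs the values were 0.0932, 0.196 and 0.341 for Axin2 and 0.279, 0.117 and 0.0543 for Rnf43, and in cells with at most 20% mitochondrial UMIs they were 0.0464, 0.0817 and 0.281 for Axin2 and 0.128, 0.0613 and 0.0420 for Rnf43. The 20% limit kept 537 of 3203, 541 of 3297 and 3257 of 3979 enterocytes. Under it the intervals of duodenum and jejunum overlapped for Axin2, and those of jejunum and ileum for Rnf43. B cells held Axin2 at 0.0487 and Rnf43 at 0.00975, and T cells held 0.121 of each, beside 0.159 and 0.116 over all enterocytes. Axin2 in duodenal enterocytes and Rnf43 in those of jejunum and ileum lay below the T cell level, and 1086 of 1229 T cells were ileal. How much of the enterocyte values was background was not tested. The share of all genes with such an order along the segments, or with intervals apart, was not counted, so these counts have no background beside them. With 1 library per segment, segment and library cannot be told apart.

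**Figure D5:**
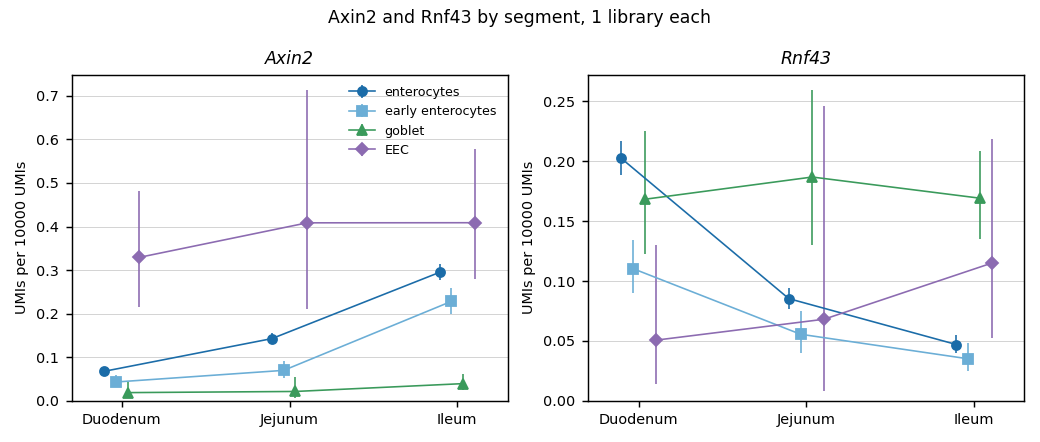
UMIs per 10000 UMIs of Axin2 (left) and Rnf43 (right) in 4 epithelial classes are plotted by segment, 1 library each, with exact 95% Poisson intervals and lines that only join the points of a class. In enterocytes Axin2 goes from 0.0676 to 0.295 and Rnf43 from 0.203 to 0.0469 between duodenum and ileum, while goblet cells stay between 0.168 and 0.187 for Rnf43.

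Znrf3 was also found in immune cells. It was at 0.109 UMIs per 10000 in T cells (67 UMIs in 65 of 1229 cells) and at 0.105 in IgA B cells (18 UMIs in 16 of 87 cells), while B cells held 0 of 2052283 UMIs, which allows up to 0.0146. Rnf43 in T cells was found in 67 of 1229 cells, and Ascl2 in 5.

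The other genes of the pathway were read from 6 lists with 73 genes, of which 50 passed the filter on low counts. In ISC/proliferating cells against enterocytes, 22 of the 50 were higher and 10 lower by edgeR, with 34.3% and 35.8% of all genes called higher and lower. Levels are scaled to class totals but fold changes by TMM, so the 2 can differ for a gene. Library sizes alone moved the median log2 difference of all genes from -0.05 to 0.71 here, and fold changes of the list genes depend on this scaling. These classes were built from genes of the same cells, and list genes could be among those. The 8 genes were left out of them, but other crypt genes were not, so neither set was tested independently of the classes.

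Wnt target genes were mostly higher in the crypt class, with 7 of 9 tested higher and Ets2 lower, beside 34.3% and 35.8% of all genes. Their median log2 fold change was 3.85, against -0.05 over all genes. Ccnd1 and Ccnd2, cyclins of G1, rose by 6.76 ± 0.37 and 6.34 ± 0.53 on the log2 scale, and Myc, a growth transcription factor, by 7.16 ± 0.63 (edgeR, adjusted p = 3.05e-08). The ephrin receptors Ephb2 and Ephb3, which position cells along the crypt, rose by 4.30 ± 0.51 and 3.68 ± 0.62. Ephb2 was also at 0.505 UMIs per 10000 in tuft cells and at 0.452 in ISC/proliferating cells. Of the other crypt genes, 7 of 8 tested were higher and none lower, beside the same 34.3% and 35.8% of all genes. Among them were Msi1, an RNA-binding protein (7.05 ± 0.55), Lrig1, an inhibitor of ErbB signalling (4.53 ± 0.46), and Rgmb, a BMP co-receptor (2.57 ± 0.22).

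Of 16 signalling components tested, 2 were higher and 7 lower in the crypt class, beside 34.3% and 35.8% of all genes. The lower ones included Ctnnb1, which encodes β-catenin (-1.38 ± 0.18), Apc, a scaffold of the destruction complex (-1.45 ± 0.16), and Tcf7l2, the main TCF factor of the intestine (-2.59 ± 0.24, edgeR, adjusted p = 6.91e-08). Tcf7l2 was at 0.621 UMIs per 10000 in ISC/proliferating cells, 1.01 in early enterocytes, 2.22 in enterocytes and 2.93 in tuft cells. The members that were higher were Tcf7, another TCF factor, and Amer1, a binding partner of Apc.

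Among receptors, 4 of 11 tested were higher and 2 lower, beside 34.3% and 35.8% of all genes, so the share that was higher was near that of all genes. Fzd2 rose by 6.76 ± 0.94 on the log2 scale, from 29 UMIs in the crypt class, Fzd6 by 2.90 ± 0.69 and Fzd5 by 0.93 ± 0.17 (edgeR). Lgr4, the R-spondin receptor related to Lgr5, was at 0.564 UMIs per 10000 in ISC/proliferating cells and 0.229 in enterocytes (0.54 ± 0.19, adjusted p = 0.0195), and its call was lost without the duodenum (adjusted p = 0.0956), without the jejunum (adjusted p = 0.262) and without the library block (adjusted p = 0.207). Inhibitors gave 2 of 5 tested higher and none lower, beside 34.3% and 35.8% of all genes, so the share that was higher was again near that of all genes. Sfrp5, a secreted Wnt-binding protein, was at 0.244 UMIs per 10000 in the crypt class and 0.332 in EECs (7.63 ± 0.68 for crypt cells against enterocytes, adjusted p = 1.17e-07), and Nkd1, a Dishevelled-binding feedback inhibitor, rested on 4 UMIs. Wif1, a secreted Wnt inhibitor, had 44 UMIs in EECs, 1 in enterocytes and 0 in the other 5 epithelial classes.

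Only Wnt3 of 11 ligand genes passed the filter. It was at 0.589 UMIs per 10000 in Paneth cells (26 UMIs in 23 cells), 0.423 in EECs (79 UMIs) and 0.00733 in ISC/proliferating cells (3 UMIs), and its difference between crypt cells and enterocytes was not called (2.25 ± 1.33, edgeR, adjusted p = 0.151).

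The genes whose pattern over the 18 sums (6 classes in 3 libraries) was most like that of each of the 8 were ranked by Pearson's r of log2 TMM-normalised counts, as a description, since sums of a library share its depth and those of a class its cells. Lgr5 was most like Ascl2 (r = 0.956), Rmi2 and Pla2g4a, and Ascl2 most like Rmi2 (r = 0.981), Rad51ap1 (0.967) and Lgr5. Over the 18 sums Rmi2, Rad51ap1 and Ascl2 had only 75, 134 and 201 UMIs, so these r values rest on few counts. Olfm4 was most like Kpnb1 (0.964), Rfc3 and Mcm7, Smoc2 most like Nop56, Anp32b and Sfpq, and Znrf3 most like Rbbp7, Fam60a and Prmt1. Axin2 was most like Gm2a, Pde7a and Cenps (0.880 to 0.906), Rnf43 like Tra2a, Fhod1 and Zfp91 (0.810 to 0.855), and Sox9 like Cdc42ep1, Rapgef5 and Fam57a (0.921 to 0.946). Among the 8, Axin2 and Rnf43 had r = -0.05 with each other, Axin2 and Sox9 -0.18, and Smoc2 and Znrf3 0.892.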

How the data were processed

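Small intestinal cells of duodenum, jejunum and ileum were measured by 10x 3′ v3 single-cell RNA-seq, 1 library per segment. The authors counted UMIs per gene and barcode with Cell Ranger 3.0.2 on GRCm38 (mm10), and the deposited values are raw counts with no normalization. The annotation release was not given in the sources used here. Of the gene IDs, 99.6% were in GENCODE M21, from which positions were taken.

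The limits of the study's methods were applied to barcodes, which kept UMI totals from 800 to 50000, gene totals from 200 to 6000 and mitochondrial shares no higher than 40%. They were integrated and clustered with Seurat 5.3.0 (R 4.3.3, 2000 variable genes without the 8 genes, 30 components, resolution 0.8) and clusters were named from marker lists without the 8 genes. Scrublet (scanpy 1.11.5) called 0, 0 and 146 doublets in duodenum, jejunum and ileum, too few in the former 2 libraries for the caller to have worked, and none were removed. A level is the sum of a gene's UMIs over a class, scaled to 10000 UMIs of that class. Its 95% interval is the exact Poisson one, and a count of 0 was given a floor of 3 UMIs. These cover error of counting alone.

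UMIs were summed over at least 10 cells per class and library, which gave 18 sums of 6 classes, and tested with edgeR 4.0.16 (quasi-likelihood, TMM, library as a block, 11217 genes, Benjamini-Hochberg, threshold 0.05). The block pairs classes of the same library, whose cells came from the same pooled mice. The p-values measure how far differences between classes varied over these 3 libraries, which also differ in segment, with the spread shared over the 6 classes. They do not measure the spread between mice. Segments were compared without a test. The test was tried on simulated data with 200 changed genes. Alternatives were DESeq2 1.42.0, other normalizations, filters, clusterings and leaving out each library. The 8 genes and the lists were chosen with earlier results of these data known. Named list genes were up to 3 per list with the smallest adjusted p in ISC/proliferating cells against enterocytes, and Wnt3, Lgr4, Lrig1, Ephb2, Ephb3, Myc, Tcf7l2 and Ctnnb1 in any case. Ets2, Tcf7 and Amer1 were named after their values were seen, as was every gene leading a subcluster. RefSeq promoters (GRCm38.p6) were found for 4 of the 8 genes. The groups of subclusters, of cells with an Lgr5 UMI and of cells with T cell marker UMIs were described after the data were seen.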

Additional observations from a re-analysis of the deposited data

Results flagged for a closer look

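Rnf43 differed between segments in how enteroendocrine cells compared with enterocytes. In the ileum EECs held 0.115 UMIs per 10000 and enterocytes 0.0469, while in the duodenum EECs held 0.0507 and enterocytes 0.203. Each segment is 1 library, the EEC values rest on 9 and 4 UMIs, and the difference was not tested.

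The upper limits on UMIs and genes removed 202 barcodes with at most 40% mitochondrial UMIs, which is 0.742% of all barcodes and 4.53% of all UMIs. These barcodes entered the values above only where the upper limits were said to be lifted. All 8 genes were found in them above the limit that a count of 0 allows. They held Olfm4 at 9.99 UMIs per 10000, Sox9 at 0.740, Smoc2 at 0.559, Axin2 at 0.463, Ascl2 at 0.221, Rnf43 at 0.180, Lgr5 at 0.175 and Znrf3 at 0.0986. Of all deposited UMIs of Ascl2, 52.0% lay in these barcodes, as did 50.2% of those of Olfm4, 48.3% of Smoc2 and 31.9% of Lgr5. Paneth markers were at 509 UMIs per 10000 there and at 10.8 in the crypt class, and goblet markers were at 109 and 14.4. ISC/proliferating markers were at 26.7 there, against 38.5 in the crypt class and 0.651 in enterocytes. When clustered with the upper limits lifted, 116 of the 202 were named ISC/proliferating, 48 early enterocytes, 14 Paneth and 8 goblet. Whether these barcodes were single cells was not tested.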

How the results depend on the processing

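Of 50 results for the 8 genes that passed the threshold, 776 of 792 values under alternatives stayed past it in the same direction, 16 did not pass and 0 reversed. This leaves out sums of at least 3 cells, which used the same sums, and early enterocytes without integration, which rest on the ileum alone. It keeps resolution 1.2, which left the cell numbers of ISC/proliferating, goblet, tuft and EEC classes unchanged. It also keeps the removal of called doublets, which took no cell from duodenum or jejunum. Agreement under those settings adds little. On leaving out each library, the number of the 8 genes called ranged from 7 to 8 in ISC/proliferating cells against enterocytes, 8 to 8 against early enterocytes, 3 to 5 in goblet cells, 4 to 5 in tuft cells and 2 to 5 in EECs against enterocytes, and 7 to 7, 6 to 7 and 6 to 7 in goblet cells, tuft cells and EECs against ISC/proliferating cells. Without TMM, EECs against enterocytes gave 5 genes (3 with it). Without the library block (pairing) EECs against ISC/proliferating cells gave 6 in place of 7, and the other counts did not move. Library sizes alone shifted the median log2 difference of all genes from -0.05 to 0.71 in crypt cells against enterocytes, with 5518 genes higher and 2395 lower in place of 3844 and 4020. The splits became 4148 and 1838 for crypt cells against early enterocytes, 4539 and 1862 for tuft cells and 5615 and 1725 for EECs against enterocytes, 1758 and 5235 for goblet cells and 2451 and 3186 for tuft cells against crypt cells. Reversals were of uncalled results: Ascl2 in goblet cells (0.15), Lgr5 (0.51) and Ascl2 (1.82) in EECs and Wif1 in crypt cells (3.32) with DESeq2, Lgr5 in EECs with upper limits lifted (1.65) and Rnf43 in tuft cells without TMM (0.42) and at 20% mitochondrial UMIs (0.29), all against enterocytes. On leaving out each library, Axin2 in EECs ranged from -0.012 without the duodenum to 1.202 without the ileum, Olfm4 in tuft cells from -1.90 without the ileum to 0.48, and Rnf43 in tuft cells from -0.68 to 0.49 without the duodenum. With upper limits lifted, an alternative added after seeing the data, crypt levels were 0.316 for Lgr5, 19.4 for Olfm4, 0.934 for Smoc2 and 0.316 for Rnf43. At 20% mitochondrial UMIs, Olfm4 and Rnf43 were at 27.5 and 0.333 in crypt cells, Sox9 at 6.19 in tuft cells, Axin2 at 0.0464 and 0.0817 and Rnf43 at 0.128 and 0.0613 in enterocytes of duodenum and jejunum. Olfm4 in crypt cells was 23.5 with the 8 genes allowed in clustering and 25.0 without cells with T cell markers (added later), Sox9 in tuft cells 6.32 without the cells richest in enterocyte markers, and ileal Axin2 0.245 without integration. Per 10000 non-mitochondrial UMIs (added later), Axin2 in enterocytes was 0.0932, 0.196 and 0.341, and Rnf43 0.279 and 0.117 in duodenum and jejunum. The causes were not tested. Depth limits Lgr5, Ascl2 and Znrf3 most, which rest on 379, 228 and 340 UMIs in kept cells.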
